A study of Mus musculus with 7 samples.

Results

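The 36 genes described here are antiviral interferon-stimulated genes and 2 parts of the transcription factor that switches them on, Stat2 and Irf9. They were taken by gene symbol from a count table of 26130 genes, leaving out chemokines and guanylate-binding proteins. All 36 had counts in every library and all 36 were among the 13665 genes that passed the filter on low counts, so no member dropped out of a test. The mice carried 2 reporters. Fth1-mScarlet reports ferritin heavy chain, the iron-storage subunit, in red, and Lyz2GFP reports the lysozyme gene of myeloid cells in green. From digested lungs, cells positive for Lyz2GFP, CD11b and Ly6C and negative for Ly6G were sorted, a gate for monocytes that leaves out neutrophils, and split by low or high Fth1-mScarlet. The groups were low cells of untreated mice (untreated Fth1-low, 2 libraries), low cells of mice given 20 µg Escherichia coli lipopolysaccharide (LPS) in 50 µl into the trachea 3 days earlier (LPS Fth1-low, 2 libraries), and high cells after the same LPS (LPS Fth1-high, 3 libraries). Both reporters and the gate are shared by all groups, and the sources used here give no strain, age or sex. High cells of untreated mice were not analysed here, so setting LPS Fth1-high against untreated cells mixes treatment with gate. Nothing in the labels says that replicates came from separate mice, so p-values measure library-to-library spread only, part of which may be technical. The sex-linked genes Xist and Ddx3y, given below, differed in opposite directions between the 2 untreated libraries, and between LPS Fth1-high replicates 2 and 3. These pairs therefore differed in sex make-up, while the number of mice per library is not known.

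Type I interferons, interferon alpha and beta, bind the receptor IFNAR1 and IFNAR2 and activate the kinases JAK1 and TYK2. STAT2 is phosphorylated and, with IRF9, takes part in the factor ISGF3, which binds the interferon-stimulated response element (ISRE) of antiviral genes. Interferon gamma uses another receptor, IFNGR1 and IFNGR2, with JAK1 and JAK2, and acts through the gamma-activated site (GAS), and many genes answer to both kinds of interferon. LPS reaches this system through TLR4 and the adaptor TRIF, which in macrophages leads to transcription of interferon beta. In monocytes the products of the genes sense foreign nucleic acid, block viral translation, cut viral RNA or deplete nucleotides.

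The promoters of 27 members were found in the RefSeq promoter table of GRCm38.p6, which holds 250 bases before to 50 after each start. Both strands were searched for the ISRE core, here 2 copies of GAAA with any 2 bases between them. It was present in 15 of the 27 members with a promoter (55.6%), against 3.99% of all 27025 genes with one. A longer form, the core followed by CT, was found in 7 members (25.9%) against 0.303% of all genes. The GAS letters TTCNNNGAA were found in 7 members (25.9%) against 9.55%. The sequences below are upstream stretches of 7 members, 6 of which passed a test in these cells, with Oas1a, which passed none, for comparison. Capitals mark the ISRE core or overlapping copies of it, which reads as copies of TTTC where it lies on the strand opposite to the gene.
Isg15: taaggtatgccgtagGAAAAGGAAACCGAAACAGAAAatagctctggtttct
Ifit1: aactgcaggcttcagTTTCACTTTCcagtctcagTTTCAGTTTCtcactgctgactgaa
Ifi205: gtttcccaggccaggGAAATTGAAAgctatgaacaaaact
Rsad2: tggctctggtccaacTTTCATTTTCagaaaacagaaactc
Bst2: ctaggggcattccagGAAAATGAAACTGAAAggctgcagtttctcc
Slfn5: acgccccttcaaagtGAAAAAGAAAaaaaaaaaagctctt
Oas1a: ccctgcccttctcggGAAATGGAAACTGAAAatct
The Isg15 stretch lies on the minus strand at chr4:156200860-156200911 and holds 3 overlapping copies 78 to 57 bases before the start. The Ifit1 stretch, on the plus strand at chr19:34640770-34640828, holds 2 copies 104 to 76 bases before the start. The others lie at chr1:174031865-174031904 (Ifi205, minus), chr12:26456548-26456587 (Rsad2, minus), chr8:71537572-71537617 (Bst2, minus), chr11:82951932-82951971 (Slfn5, plus) and chr5:120907526-120907560 (Oas1a, minus). Oasl1, Herc6, Irf9, Isg20 and Samhd1, which also passed a test, had no ISRE core in this window, and Isg20 and Samhd1 held GAS letters. Mx2 and Ifi204, which passed a test too, had no promoter to search. The core was also found in Stat2, Ifit3, Ifit3b, Oas3, Ifih1, Ddx58, Eif2ak2 and Trim30a, which passed no test. It was therefore not particular to members that passed a test. A match describes the letters only and does not show that a factor binds there.

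Libraries held 10459703 to 27997007 counts, except LPS Fth1-low replicate 1 with 637787, where 20.2% of counts were ribosomal RNA against 0.727% to 8.45% elsewhere. In that library a floor of 3 counts equals 5.02 CPM (counts scaled to a common library size), against 0.106 to 0.280 CPM in the others. Of the members 1, Ifi44, lay under that floor there. The members together took 0.578% to 0.972% of counts. The reporter gene Fth1 was at 1786 and 1672 CPM in untreated Fth1-low, 2970 and 4825 in LPS Fth1-low, and 13230, 21000 and 20470 in LPS Fth1-high, all high libraries above all low ones.

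LPS Fth1-low cells against untreated Fth1-low cells compare the low gate after LPS with the low gate without it. Cell type markers, given below, also differed between these groups. Isg15, Oasl1 and Ifi205 rose 2.88-fold, 4.26-fold and 3.17-fold, and the other 33 members did not pass the test. Genes were called at a Benjamini-Hochberg adjusted p below 0.05 over all genes in edgeR's quasi-likelihood test. The 3 members called higher are 8.33% of 36, against 2.99% of all genes tested. None was called lower, against 0.629% of all genes. DESeq2 and limma-voom also gave 0, as did edgeR at an unadjusted p below 0.05, which 5.58% of all genes met in that direction. The median log2 difference was 0.21 over the members and -0.05 over all genes. Libraries of the 2 groups did not overlap upward in 9 members (25.0%, all genes 16.3%) and downward in 2, Irf9 and Isg20 (5.56%, all genes 23.2%). Without untreated replicate 1 the 3 calls fell to 0 and the median was -0.07. Ifi205 alone was called without LPS Fth1-low replicate 1, Oasl1 lost its call without replicate 2 (adjusted p = 0.071), and without untreated replicate 2 the median rose to 0.59.

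LPS Fth1-high cells against LPS Fth1-low cells show how the genes differ with the reporter within inflamed lungs. Bst2 was 2.34-fold higher, and Samhd1, Ifi205 and Ifi204 were 2.47-fold, 1.89-fold and 1.85-fold lower in Fth1-high cells. The 1 member called higher is 2.78% of 36 against 3.68% of all genes, and the 3 called lower are 8.33% against 4.57%. The median difference was -0.17 against 0.04 over all genes. Libraries of the 2 groups did not overlap downward in 10 members (27.8%, all genes 17.1%) and upward in 3 members, Ifit1, Rsad2 and Bst2 (8.33%, all genes 24.2%). With either LPS Fth1-low library dropped in turn, 1 member was lower and 0 were higher. Without LPS Fth1-high replicate 2 there was 1 call in each direction, and without replicate 3 there were 0. The median was -0.29 without LPS Fth1-high replicate 1 and -0.04 without replicate 2.

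LPS Fth1-high cells against untreated Fth1-low cells gave calls in both directions. Ifit1, Oasl1, Isg15, Bst2, Herc6, Rsad2 and Ifi205 rose, and Isg20, Samhd1, Mx2, Slfn5, Irf9 and Ifi204 fell. The 7 higher are 19.4% of members against 12.4% of all genes, and the 6 lower are 16.7% against 11.9%. The median difference was 0.10 against 0.03, and it was -0.11 without untreated replicate 1, -0.04 without LPS Fth1-high replicate 1 and 0.53 without untreated replicate 2. Libraries did not overlap upward in 10 members (27.8%, all genes 30.3%) and downward in 7 (19.4%, all genes 27.8%). The 3 comparisons share groups, so their values are given side by side below and are not independent. Without untreated replicate 1 there were 2 higher and 3 lower. No member was called lower without untreated replicate 2, LPS Fth1-high replicate 2 or LPS Fth1-high replicate 3. Ifit1 and Oasl1 passed under all 14 alternatives. Isg15, Bst2, Herc6 and Rsad2 lost their calls only without untreated replicate 1, where adjusted p was 0.0533, 0.0767, 0.116 and 0.159, the highest over the alternatives, whose lowest were 1.39e-05, 4.53e-05, 4.58e-04 and 1.93e-04. The adjusted p of Ifi205 reached 0.344, and its call was lost without each untreated and each LPS Fth1-high library, with no filter on low counts and without ribosomal RNA genes. Of the members that fell, the highest adjusted p over the alternatives ran from 0.111 for Samhd1 to 0.364 for Ifi204.

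**Figure D1:**
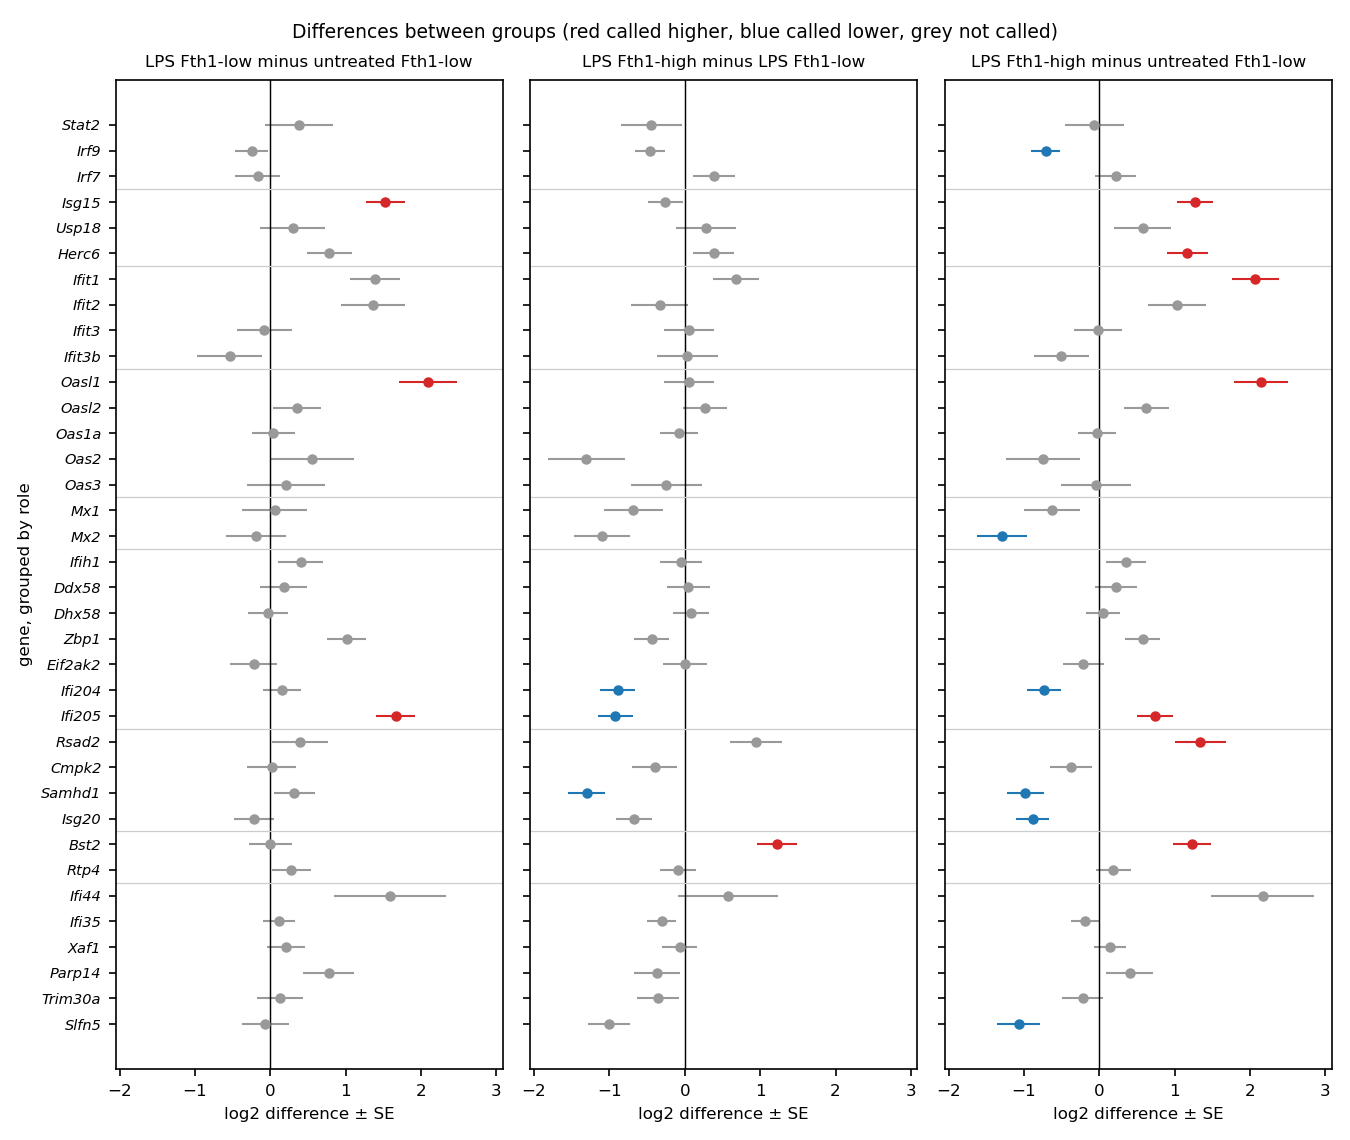
Log2 difference with its standard error for each of the 36 genes (rows, grouped by role) in the 3 comparisons, with 0 marked by a line. Red points were called higher and blue points lower at an adjusted p below 0.05, and the largest called rises are those of Oasl1 and Ifit1, near 2 on the log2 scale.

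Of the transcription factors, Irf9, the DNA-binding part of ISGF3, fell. It stood at 134.6 and 125.2 CPM in untreated Fth1-low, 93.8 and 121.7 in LPS Fth1-low, and 88.2, 71.7 and 78.9 in LPS Fth1-high. The groups did not overlap in any comparison. The log2 difference was -0.71 ± 0.19 (SE) for LPS Fth1-high against untreated (adjusted p = 0.0253), while -0.46 ± 0.20 against LPS Fth1-low did not pass (adjusted p = 0.218). Stat2, its partner, was at 100.2 and 215.3, at 274.6 and 146.2, and at 208.6, 118.1 and 125.3 CPM in the same order. Its replicates differed more than its groups. Irf7, which amplifies interferon alpha transcription, was at 436.2 and 675.3, at 515.6 and 474.0, and at 823.3, 507.5 and 607.5 CPM. Neither Stat2 nor Irf7 passed a test, and all 3 groups overlapped.

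The ISG15 system attaches the ubiquitin-like protein ISG15 to other proteins. Isg15 (chr4:156199424-156200818) was at 47.1 and 66.4 CPM in untreated Fth1-low, 182.5 and 147.7 in LPS Fth1-low, and 149.9, 112.7 and 146.7 in LPS Fth1-high. Both LPS groups lay above the untreated libraries and overlapped each other. The log2 difference from untreated was 1.53 ± 0.26 in the low cells (adjusted p = 0.0116) and 1.27 ± 0.24 in the high cells (adjusted p = 0.00407). Herc6, an ISG15 ligase of the mouse, was at 41.6 and 64.1, at 83.7 and 95.7, and at 150.3, 95.7 and 109.5 CPM. It rose in LPS Fth1-high against untreated by 1.17 ± 0.27 (adjusted p = 0.0118). Its rise of 0.78 ± 0.30 in LPS Fth1-low did not pass (adjusted p = 0.271), although no LPS library fell within the untreated range. Of its 58-base stretches, 11.7% are shared with the overlapping gene Gm45193. Usp18, the protease that removes ISG15 and dampens the receptor, was at 29.6 and 51.7, at 30.1 and 60.8, and at 77.2, 37.4 and 67.2 CPM. Its groups overlapped in every comparison.

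IFIT proteins bind foreign RNA and hold back its translation. Ifit1 (chr19:34640871-34650009) was at 19.5 and 29.6 CPM in untreated Fth1-low, 50.2 and 72.5 in LPS Fth1-low, and 132.6, 75.7 and 99.4 in LPS Fth1-high. The 3 groups were fully separate and stepped upward. LPS Fth1-high exceeded untreated by 2.07 ± 0.31 on the log2 scale (adjusted p = 0.00112), and this call held without each of the 7 libraries in turn. The step from untreated to LPS Fth1-low, 1.39 ± 0.33, had an adjusted p of 0.058, and the step between the LPS groups, 0.68 ± 0.31, one of 0.233. Ifit2 had mean levels of 84.4, 216.1 and 172.3 CPM in the 3 groups and passed no test. Ifit3 and Ifit3b, whose transcripts share 47.7% and 41.5% of their 58-base stretches, differed from untreated in LPS Fth1-low by -0.08 and -0.54. Reads of this pair cannot be told apart with certainty.

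OAS enzymes sense double-stranded RNA, and most make a messenger that activates RNase L, whereas the mouse OASL1 protein is known to restrain translation of Irf7 mRNA. Oasl1 (chr5:114923240-114937915) was at 23.2 and 44.8 CPM in untreated Fth1-low, 149.0 and 139.8 in LPS Fth1-low, and 206.8, 112.4 and 130.0 in LPS Fth1-high. Every LPS library was above both untreated libraries. It rose by 2.09 ± 0.38 in the low cells (adjusted p = 0.0165) and by 2.15 ± 0.36 in the high cells (adjusted p = 0.00201), and the second call held without each library. The other 4 members of the family passed no test. Their LPS Fth1-low differences from untreated lay between 0.04 for Oas1a and 0.55 for Oas2. Oas2 varied most, at 66.1 and 175.8, at 262.8 and 105.8, and at 100.2, 56.2 and 58.7 CPM. Its difference between LPS groups, -1.31 ± 0.51, had an adjusted p of 0.181. Oas1a shares 53.7% of its stretches with Oas1g.

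The MX GTPases trap viral nucleocapsids. Mx2, which this annotation lists as a polymorphic pseudogene, was at 23.2 and 39.8 CPM in untreated Fth1-low, 35.2 and 23.9 in LPS Fth1-low, and 17.5, 8.58 and 12.6 in LPS Fth1-high. All high libraries were below all low ones. It fell by 1.29 ± 0.33 against untreated (adjusted p = 0.0191), and its -1.10 ± 0.37 against LPS Fth1-low did not pass (adjusted p = 0.112). Mx1 moved by -0.63 and -0.68 in the same comparisons and passed neither.

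Of 7 nucleic acid sensors, Ifi205 and Ifi204 changed, both members of the interferon-inducible p200 family of DNA-binding proteins on chromosome 1. Ifi205 (chr1:174011998-174031810) was at 134.1 and 202.2 CPM in untreated Fth1-low, 470.4 and 589.9 in LPS Fth1-low, and 268.2, 308.5 and 266.0 in LPS Fth1-high. It was highest in LPS Fth1-low, with no overlap between any groups. It rose by 1.66 ± 0.26 in LPS Fth1-low (adjusted p = 0.00763), and LPS Fth1-high was 0.92 ± 0.23 below LPS Fth1-low (adjusted p = 0.0388) and 0.74 ± 0.24 above untreated (adjusted p = 0.0479). Ifi204 was at 444.3 and 640.2, at 550.8 and 652.4, and at 372.0, 317.2 and 288.3 CPM. Its low groups overlapped and its high libraries were lower than both, by 0.89 ± 0.23 against LPS Fth1-low (adjusted p = 0.0458) and 0.73 ± 0.23 against untreated (adjusted p = 0.0437). The Ifi204 call between the LPS groups was lost on leaving out each of the 7 libraries in turn (adjusted p over the alternatives 0.00153 to 0.172), and that of Ifi205 on leaving out each LPS library (0.00122 to 0.146). Ifi211, the gene that shares most sequence with each, holds 13.5% of the 58-base stretches of Ifi204 and 17.9% of those of Ifi205. In all, 17% of the stretches of Ifi204 are shared with any other gene. The RNA helicases Ifih1, Ddx58 and Dhx58 and the kinase Eif2ak2 lay within 0.41 of untreated in both LPS groups. Zbp1, a sensor of Z-form nucleic acid, had means of 205.1, 416.1 and 305.6 CPM, and its 1.01 ± 0.26 in LPS Fth1-low had an adjusted p of 0.0716.

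Enzymes of nucleotides and RNA moved in opposite directions. Rsad2, which encodes viperin and makes a chain-terminating nucleotide, was at 75.4 and 129.3 CPM in untreated Fth1-low, 98.8 and 162.3 in LPS Fth1-low, and 351.0, 213.5 and 212.8 in LPS Fth1-high. The high libraries were above all 4 low ones. LPS Fth1-high exceeded untreated by 1.34 ± 0.34 (adjusted p = 0.0189), and the 0.95 ± 0.34 against LPS Fth1-low did not pass (adjusted p = 0.144). Samhd1, which depletes deoxynucleotides and limits retroviruses, was at 2111 and 2185, at 2697 and 2663, and at 1371, 1035 and 855.6 CPM. The high libraries were lowest in every comparison, by 1.30 ± 0.25 against LPS Fth1-low (adjusted p = 0.0115) and 0.98 ± 0.25 against untreated (adjusted p = 0.0177). The first call was lost without LPS Fth1-high replicate 3 (adjusted p over the alternatives 2.46e-07 to 0.0566). Samhd1 had the highest level of any member per kilobase of exon in the low groups, with mean CPM per kilobase of 234.8 in untreated and 292.9 in LPS Fth1-low against 118.8 in LPS Fth1-high. Isg20, an RNA exonuclease, was at 35.3 and 40.1, at 31.8 and 32.8, and at 25.7, 16.1 and 19.6 CPM, and fell by 0.88 ± 0.22 against untreated (adjusted p = 0.0166). Cmpk2, a mitochondrial nucleotide kinase and neighbour of Rsad2, passed no test.

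Of the membrane and trafficking genes, Bst2, which encodes tetherin and holds budding virus on the cell, was at 102.9 and 123.7 CPM in untreated Fth1-low, 112.2 and 114.4 in LPS Fth1-low, and 263.8, 194.2 and 339.6 in LPS Fth1-high. The low libraries lay close together, and every high library was above them. The log2 difference was 1.23 ± 0.27 from LPS Fth1-low (adjusted p = 0.0204) and 1.23 ± 0.26 from untreated (adjusted p = 0.00709). The first call was lost by limma-voom, without LPS Fth1-low replicate 1 or 2, and without LPS Fth1-high replicate 3 (adjusted p over the alternatives 3.2e-04 to 0.105). Bst2 also marks plasmacytoid dendritic cells. Their 7 marker genes summed to 8.50 and 3.82 CPM in untreated Fth1-low, 13.4 and 3.55 in LPS Fth1-low, and 2.76 to 6.64 in LPS Fth1-high. The defining marker Siglech was at 0.250 and 0, at 1.67 and 0.154, and at 0.0813 to 0.730 CPM. In LPS Fth1-low replicate 1 the sum rests on 5 counts of Ly6d, 2 of Ccr9 and 1 of Siglech. The part of such cells in the Bst2 difference was not tested. Per kilobase of exon Bst2 rose from 125.5 mean CPM in LPS Fth1-low to 294.5 in LPS Fth1-high, the highest level of any member in that group. Rtp4, a receptor transport protein, passed no test.

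Among the remaining effectors, Slfn5, of the Schlafen family, was at 533.2 and 896.6 CPM in untreated Fth1-low, 698.1 and 667.6 in LPS Fth1-low, and 438.2, 283.9 and 298.7 in LPS Fth1-high. Each high library was below each low library, and it fell by 1.07 ± 0.28 against untreated (adjusted p = 0.0208). It was 2.01-fold lower than in LPS Fth1-low, with an adjusted p of 0.0613. Ifi44, the least abundant member per kilobase, was at 1.75 and 7.27, at 3.35 and 16.9, and at 20.2, 11.7 and 26.6 CPM. Its rise against untreated of 2.17 ± 0.68 had an adjusted p of 0.0508, and the value in LPS Fth1-low replicate 1 rests on 2 counts. The 4 others, Ifi35, Xaf1, Parp14 and Trim30a, passed no test, and their LPS Fth1-high differences from untreated ran from -0.22 for Trim30a to 0.40 for Parp14.

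**Figure D2:**
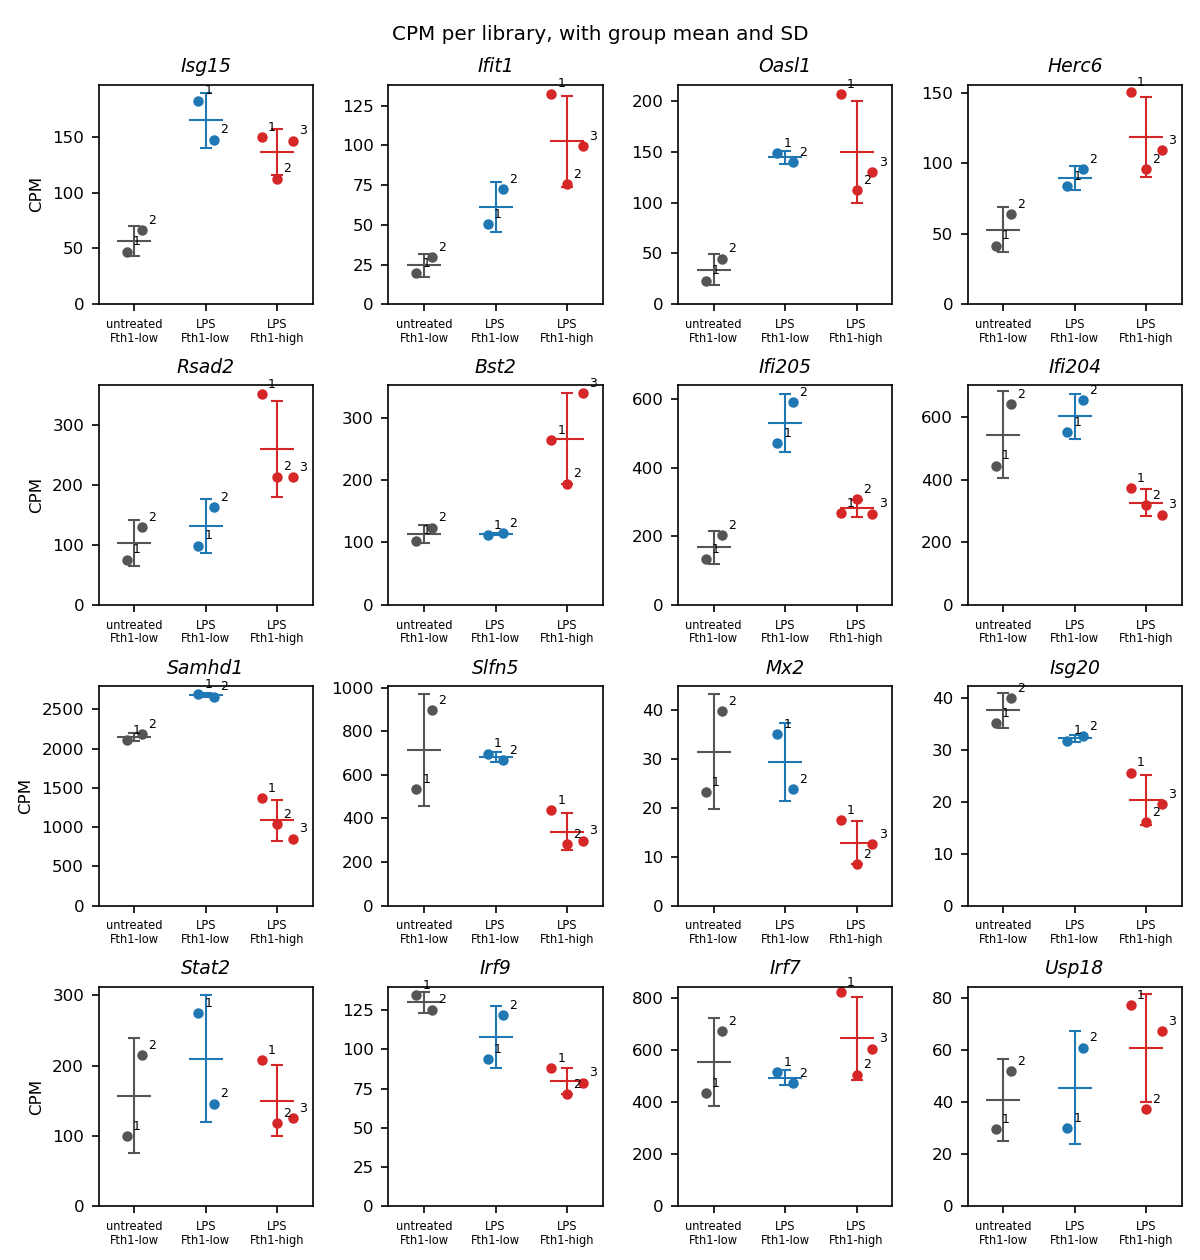
CPM of 16 members in each of the 7 libraries (points, numbered by replicate) with the group mean and SD (lines), on linear axes that start at 0. Isg15, Ifit1 and Oasl1 are above the untreated libraries in every LPS library, Bst2 and Rsad2 are highest in LPS Fth1-high, and Samhd1, Slfn5 and Mx2 are lowest there.

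Replicates of the same group differed in most members at once. Untreated replicate 1 was below replicate 2 in 35 of 36 members, Irf9 being the exception, with a median log2 difference of -0.66 against 0.05 over all genes. LPS Fth1-high replicate 1 was above replicate 2 in 35 of 36 members (median 0.64) and above replicate 3 in 33 of 36 (median 0.44), against 0.00 and -0.01 over all genes. Replicates 2 and 3 of that group differed by a median of -0.20, with 28 members lower in replicate 2, against -0.0031 over all genes. The LPS Fth1-low pair split 18 to 18 with a median of -0.01. Over all genes the median of that pair was -0.23, with 39.9% of genes higher in replicate 1. These shifts are descriptions, since members of a regulated group are not independent. In 20 of 36 members (55.6%) the largest spread within a group was wider than the spread of the group means, against 60.4% of all genes.

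**Figure D3:**
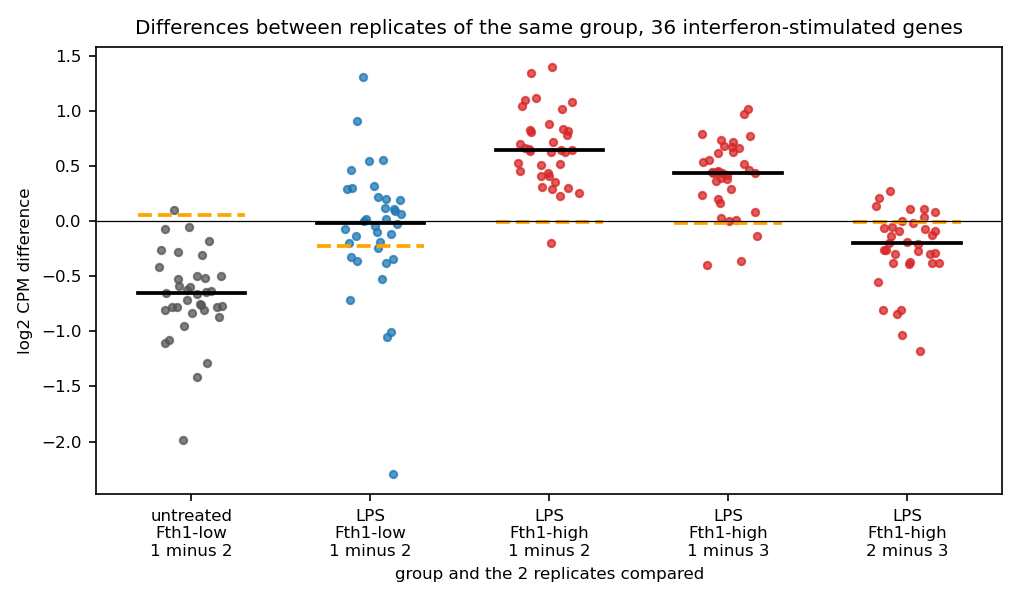
Log2 CPM difference between replicates of the same group for each of the 36 genes (points), with the median over the members (black line) and over all genes tested (dashed orange line). Members lie below 0 for the untreated pair and above 0 for LPS Fth1-high replicate 1, while the medians over all genes stay within 0.23 of 0.

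The shift extended to other interferon genes. Of 66 other interferon-stimulated genes tested, 56 were lower in untreated replicate 1 than in replicate 2 and 59 were higher in LPS Fth1-high replicate 1 than in replicate 2. Other values also differed between replicates. Xist, expressed from the inactive X of females, was at 3.58 and 274 CPM in the untreated pair and at 34.8, 1.95 and 363 in LPS Fth1-high, while the Y-linked gene Ddx3y was at 97.9 and 0.186 and at 78.3, 68.8 and 1.66. The 7 epithelial markers summed to 685.6 and 3.54 CPM in the untreated pair and to 18.7, 12.9 and 67.0 in LPS Fth1-high. Sftpc was at 493.9 and 1.40 CPM in the untreated pair. Ribosomal RNA took 4.33% and 2.22% of counts in the untreated pair and 8.45%, 1.44% and 0.727% in LPS Fth1-high. The LPS Fth1-low pair had 20.2% and 1.94% ribosomal RNA and epithelial sums of 16.7 and 108.2 CPM. In that pair Xist was at 72.0 and 176 CPM and Ddx3y at 68.6 and 37.2, so both libraries held RNA of both sexes. The part of these values in the shift was not tested.

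**Figure D4:**
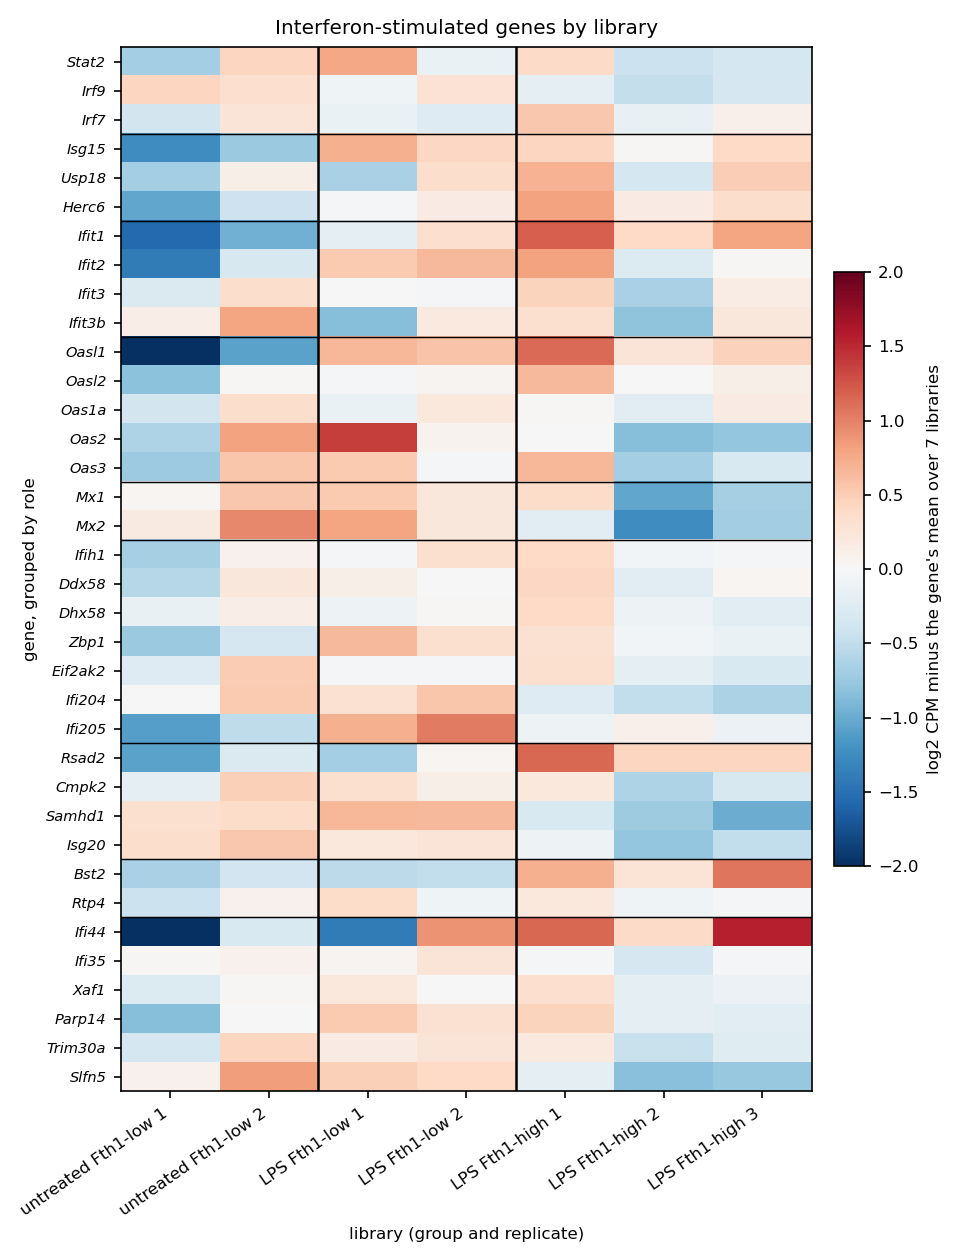
Log2 CPM of each of the 36 genes (rows, grouped by role) minus its mean over the 7 libraries (columns), with colours clipped at 2. Untreated replicate 1 is blue for most genes beside replicate 2, and LPS Fth1-high replicate 1 is redder than replicates 2 and 3.

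The genes upstream of the members were next examined as a list of 27 ligands, receptors and kinases, 9 of them tested. Interferon beta (Ifnb1) was at 0 to 0.283 CPM and 13 interferon alpha genes, near copies of each other, were at 0 in all libraries, as counted. Ifng was at 0 to 1.34 CPM. In LPS Fth1-low against untreated, Jak2, the interferon gamma receptor kinase, rose by 1.19 (adjusted p = 0.0425) and was the only gene called. That is 11.1% of the genes tested, against 2.99% of all genes. Ifngr1, the ligand-binding chain of that receptor, was at 1095 and 1010 CPM in untreated Fth1-low, 288.0 and 567.6 in LPS Fth1-low, and 167.5, 192.3 and 195.2 in LPS Fth1-high. It was the only gene of the list called between the LPS groups (11.1%, all genes 4.57% lower), with a fall of 1.23 (adjusted p = 0.0237). Against untreated, LPS Fth1-high had Jak2 and Ifnar1 among the genes called higher, by 1.90 and 0.78, and Ifngr1 and Tyk2 lower. Leaving out each library in turn, this list had 1 gene higher in LPS Fth1-low against untreated without LPS Fth1-low replicate 1 and 0 otherwise, and 0 lower between the LPS groups without each LPS Fth1-high library. Of 16 tested genes that induce interferon, Ikbke, Tlr4 and Tmem173 rose in LPS Fth1-low, Ikbke by 2.32 (adjusted p = 5.7e-04). Irf5 was lower in LPS Fth1-high than in LPS Fth1-low by 0.91 (adjusted p = 0.019), 6.25% of the inducers against 4.57% of all genes. Of 11 genes that restrain the pathway, Socs1 and Socs3 rose in LPS Fth1-low, by 3.41 and 1.92. Genes called higher in LPS Fth1-low against untreated were 18.8% of the inducers and 18.2% of the restraining genes, against 2.99% of all genes. The inducers had 1 call higher there without untreated replicate 1, untreated replicate 2 or LPS Fth1-low replicate 2, and 0 lower between the LPS groups without LPS Fth1-high replicate 2 or 3 but 3 without LPS Fth1-low replicate 1. The restraining genes had 0 called higher without untreated replicate 1 and 2 without each other library.

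Other interferon-induced families gave different counts from the members in the same fit. Of 17 GTPases known for their response to interferon gamma, which attack pathogen vacuoles, 15 rose in LPS Fth1-low against untreated (88.2%, all genes 2.99%). None fell (all genes 0.629%). Their median log2 difference was 3.18, against 0.21 in the members and -0.05 over all genes. Gbp2 was at 86.1 and 87.3 CPM in untreated Fth1-low and 952.6 and 1410 in LPS Fth1-low, and Gbp5 at 18.3 and 28.1 and at 430.3 and 393.4. Leaving out each library in turn gave 12 to 16 calls, 15 of them without the shallow library. In LPS Fth1-high 16 of 17 were called above untreated (94.1%, all genes 12.4%), with a median of 3.49. Only Gbp6 was called between the LPS groups (5.88%, all genes 3.68% higher). It was higher by 0.97 (adjusted p = 0.0411), a call lost on leaving out each LPS library in turn. The ISRE core was in 10 of 11 GTPase genes with a promoter found (90.9%) and GAS letters in 6 (54.5%). All 7 interferon-induced chemokines rose in LPS Fth1-low (100%, all genes 2.99%), with a median of 4.90. Cxcl9 went from 6.996 and 16.4 to 1080 and 1056 CPM, and Cxcl10 from 33.57 and 35.98 to 925.8 and 837.7. Between the LPS groups Cxcl9, Cxcl10 and Cxcl11 were lower in LPS Fth1-high (42.9%, all genes 4.57%), by 1.32, 1.37 and 2.32. Ccl5 was higher by 1.89 (14.3%, all genes 3.68%). Without each LPS library other than LPS Fth1-high replicate 1, 2 chemokines were lower and 0 higher. Whether these lists differ from the 36 members beyond chance was not tested, and reads of near copies among the GTPases cannot be told apart with certainty.

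**Figure D5:**
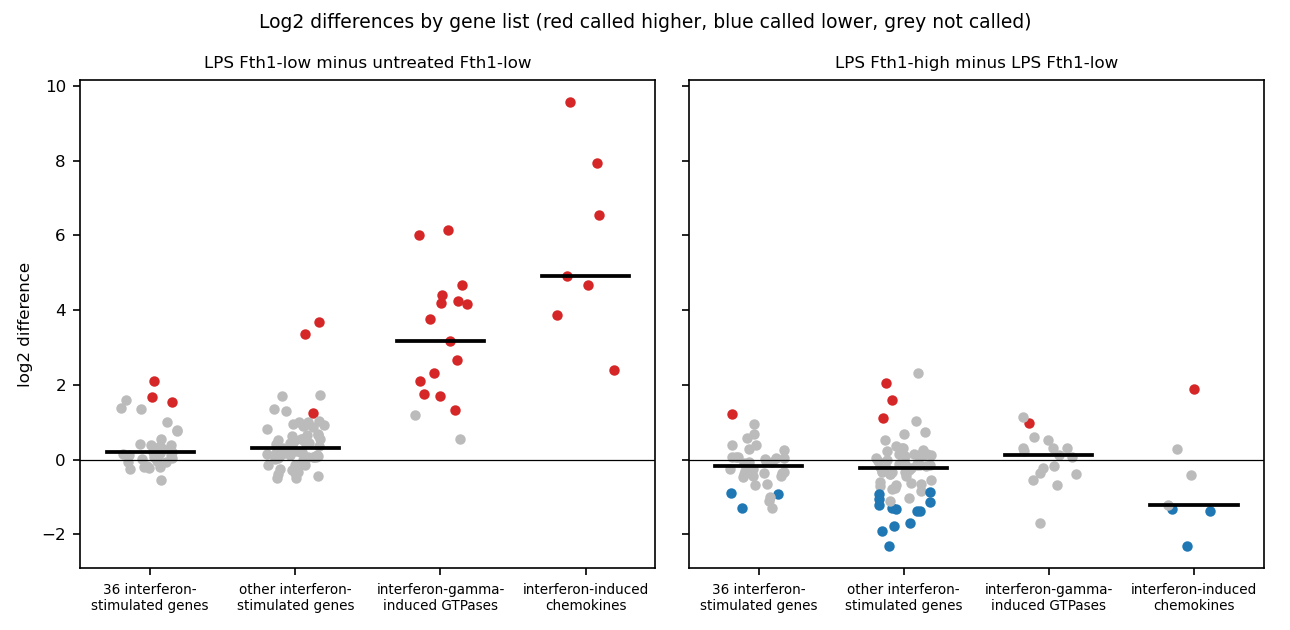
Log2 differences of the genes of 4 lists (points, with the median as a line) for LPS Fth1-low against untreated Fth1-low (left) and LPS Fth1-high against LPS Fth1-low (right). Red was called higher and blue lower, and on the left the members and the other interferon-stimulated genes lie near 0 while the GTPases and chemokines have medians of 3.18 and 4.90.

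A further list of 68 interferon-stimulated genes outside the 36, 66 of them tested, was tested in the same fit. In LPS Fth1-low against untreated, 3 rose (Cd274, Ly6a and Apobec3), 4.55% of the list against 2.99% of all genes. None fell, against 0.629% of all genes, with 0 also by DESeq2 and limma-voom. In edgeR none fell at an unadjusted p below 0.05 either, which 5.58% of all genes met. Cd274, which encodes the checkpoint ligand PD-L1, went from 27.5 and 34.8 to 370.0 and 428.9 CPM. In LPS Fth1-high against LPS Fth1-low 13 were lower and 3 higher, 19.7% and 4.55% of the list, against 4.57% and 3.68% of all genes. The lower ones included Ifitm2 (by 2.31) and Ifitm3 (by 1.70), which block viral entry, and Ifi203 (by 1.39), a neighbour of Ifi204 and Ifi205. Lgals3bp, Ifi27 and Cd274 were the 3 higher. Leaving out LPS Fth1-low replicate 1 or 2 left 8 or 5 lower, and leaving out LPS Fth1-high replicate 2 or 3 left 7 each.

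Cell type markers also moved with the groups. The 7 nonclassical monocyte markers summed to 7264 and 7823 CPM in untreated Fth1-low, 2796 and 2923 in LPS Fth1-low, and 880.7, 700.9 and 910.5 in LPS Fth1-high. Of these 7, 4 were called lower in LPS Fth1-low against untreated (57.1%, all genes 0.629%) and 6 in LPS Fth1-high against LPS Fth1-low (85.7%, all genes 4.57%). The first count dropped to 1 when replicate 1 of either low group was left out and to 2 when untreated replicate 2 was, and the second was 5 or 6 without each library. The 7 dendritic cell markers summed to 105.2 and 103.9, to 75.3 and 74.2, and to 12.9, 11.8 and 17.9 CPM. From untreated to LPS Fth1-low, 4 of the 7 had positive and 3 had negative differences (median 0.98). Only Cd209a was called there, lower (log2 difference -3.67, adjusted p = 0.0012), at 49.5 and 57.4 CPM in untreated and 3.35 and 4.32 in LPS Fth1-low. In LPS Fth1-low replicate 1 these genes had 0 to 20 counts each. Between the LPS groups all 7 differences were negative. Lyz2, the gene of the green reporter, was at 6140 to 12500 CPM. Of 7 monocyte markers, 1 was called lower between the LPS groups (14.3%, all genes 4.57%) and 0 higher (all genes 3.68%), and 5 had positive differences (median 0.46). The one called was Ccr2, the monocyte chemokine receptor, at 894.0 to 1545 CPM in the low groups and 148.1 to 360.5 in LPS Fth1-high. Ly6c2, a gene of the gate, was at 561.9 and 764.6 CPM in untreated Fth1-low, 1393 and 847.2 in LPS Fth1-low, and 1981, 2980 and 1854 in LPS Fth1-high. Itgam, which encodes CD11b, was at 936.7 and 1184, at 750.0 and 1116, and at 1602, 2109 and 1533 CPM. Both were highest in LPS Fth1-high, with log2 differences from LPS Fth1-low of 1.03 and 0.90 that did not pass (adjusted p = 0.0928 and 0.0809). The 7 neutrophil markers summed to 87.9 and 80.3 CPM, to 72.0 and 201.9, and to 24.4, 39.6 and 17.3 in the same order of groups. Between the LPS groups 5 of the 6 tested had negative differences (median -2.03), and 1, Mmp8, was called lower (16.7%, all genes 4.57%). The defining marker Ly6g was at 0 to 0.0932 CPM in all libraries. Mmp8 made up most of each sum, at 68.6 and 187.3 CPM in LPS Fth1-low and 19.6, 36.6 and 13.9 in LPS Fth1-high. The 7 alveolar macrophage markers, mostly Chil3, summed to 1444 and 1434 CPM in untreated Fth1-low, 3206 and 5821 in LPS Fth1-low, and 481, 1886 and 768.5 in LPS Fth1-high. Between the LPS groups only Chil3 was called, lower (log2 difference -2.13, adjusted p = 0.0398). Other markers of the list moved in opposite directions. In LPS Fth1-high against untreated, Marco was called higher (2.83, adjusted p = 0.00862) and Ear1 lower (-2.23, adjusted p = 0.0327). Leaving out libraries gave 0 to 1 calls in each direction there. Samhd1, Ifi204, Slfn5 and Mx2 were lower in LPS Fth1-high, where the nonclassical and dendritic sums were also lowest, as was the neutrophil sum, mostly of Mmp8. From untreated to LPS Fth1-low, where the nonclassical sum fell too, their differences were 0.32, 0.15, -0.07 and -0.19, of which none passed and the last 3 changed sign when single libraries were left out. The part of these marker sums in the differences was not tested. In sorted bulk cells, fewer cells of a type and less RNA per cell cannot be told apart.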

How the data were processed

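Per the labels' protocols, each of the 7 libraries was made from 25 ng of polyadenylated RNA of sorted mouse lung cells, by a stranded protocol with 15 PCR cycles, and read as 58-base pairs. The deposited values are raw counts per gene. Per the submitters' processing notes, the authors used DRAGEN and DESeq2 with build mm10. Tool versions, annotation and the strand counted: not given in the sources used here. Libraries were grouped by their titles, and 0 sample columns were left unused.

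Counts were tested in R 4.3.3 with edgeR 4.0.16: filterByExpr, TMM scaling, and a robust quasi-likelihood fit of all 7 libraries with 3 group means (residual df 4, biological coefficient of variation 0.301), two-sided, with Benjamini-Hochberg adjustment over 13665 genes. SE is the log2 difference over the square root of F. CPM use TMM-scaled library sizes, and log2 CPM a prior count of 2. Alternatives were RLE scaling, DESeq2 1.42.0, limma-voom (limma 3.58.1) with quality weights, no filter, only the groups compared, a replicate block, ribosomal RNA genes left out, and each library left out in turn. They were applied to the other gene lists too, a choice made after seeing the data. The procedure was tested on simulated data.

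Members, gene lists and tests were chosen with earlier results of these data known. Values per library are given for every called member, for Stat2, Irf9, Irf7, Isg15 and Usp18, for the 3 most abundant members, for the 3 largest differences per comparison among members averaging at least 10 CPM, and for the most abundant member of any role not yet named. Of other lists, the up to 5 called genes of smallest adjusted p were eligible. Positions are GRCm38 (mm10) with GENCODE vM21, 1-based, and all 36 symbols matched. An exon of another gene overlaps 4 members on the same strand and 7 on the opposite strand. Lengths and shared 58-base stretches come from that annotation's transcripts. Depth limits LPS Fth1-low replicate 1 most, and floors cover counting error only. The result for 1 gene of the ligand, receptor and kinase list is not reported here.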

Additional observations from a re-analysis of the deposited data

How the results depend on the processing

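Of 756 values of the named members under the alternatives, 649 kept their direction and side of the threshold, 61 lost a call and 20 gained one, and 26 changed direction, none of them called before or after. Of these, Bst2 in LPS Fth1-low against untreated was -0.00316 with no filter, and limma-voom gave Oasl1 as -0.12 and Usp18 as -0.0262 between the LPS groups. The rest came from leaving out a library. In LPS Fth1-low against untreated the log2 differences then ran from -0.132 to 0.159 for Bst2, -0.0931 to 0.458 for Ifi204, -0.391 to 2.93 for Ifi44, -0.458 to 0.196 for Irf7, -0.536 to 0.277 for Mx2, -0.165 to 1.44 for Oas2, -0.0738 to 0.850 for Rsad2, -0.401 to 0.372 for Slfn5, -0.0823 to 1.05 for Stat2 and -0.450 to 0.767 for Usp18. Between the LPS groups they ran from -0.252 to 0.200 for Oasl1, -0.859 to 0.0157 for Stat2 and -0.0300 to 1.01 for Usp18, and for LPS Fth1-high against untreated from -0.0666 to 0.575 for Irf7, -1.30 to 0.124 for Oas2 and -0.519 to 0.596 for Stat2. Between the LPS groups, DESeq2 called 2 members higher and 5 lower, limma-voom called 0 higher, and the fit with a replicate block called 2 higher. Without each library in turn the calls were 0 to 1 higher and 0 to 3 lower, and the median ran from -0.29 to -0.04. For LPS Fth1-low against untreated, DESeq2 and the replicate block each called 6 higher and the fit of only these 2 groups 5. Leaving out libraries gave 0 to 4 higher and 0 to 0 lower, with medians from -0.0701, without untreated replicate 1, to 0.59. For LPS Fth1-high against untreated, the replicate block called 3 lower, and leaving out libraries gave 2 to 8 higher and 0 to 6 lower, with medians from -0.11 to 0.53. The cause of these changes was not tested.

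Over the 13665 genes tested, LPS Fth1-low against untreated had 409 higher and 86 lower. Among the same genes DESeq2 gave 612 and 190, limma-voom 47 lower and the replicate block 165 lower. Leaving out libraries gave 179 to 386 of them higher and 11 to 249 lower there, and 263 to 682 higher and 372 to 602 lower between the LPS groups. For LPS Fth1-high against untreated it gave 955 to 2175 higher and 934 to 2000 lower. The labels do not say whether low and high LPS cells of the same replicate number came from the same lungs. Over 13665 genes, deviations of same-numbered replicates from the group means correlated at -0.0373 for the untreated and LPS Fth1-low pairs. They correlated at 0.102 and 0.29 for untreated and LPS Fth1-high, and at 0.271 and 0.088 for the LPS groups. Unlike-numbered libraries reached 0.276, and deviations within a group of 2 libraries mirror each other, so these values cannot show whether libraries were paired. The pairs of libraries limit every comparison, and the depth of LPS Fth1-low replicate 1 limits Ifi44.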

Other observations

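Neighbouring members gave unlike values, a choice of pairs made after the values were seen, with no test of the difference between genes. Rsad2 and Cmpk2 lie next to each other on chromosome 12, and in LPS Fth1-high against untreated Rsad2 differed by 1.34 ± 0.34 and Cmpk2 by -0.38 ± 0.28 on the log2 scale. Oasl1 and Oasl2 are neighbours on chromosome 5, where Oasl1 differed by 2.09 ± 0.38 and Oasl2 by 0.36 ± 0.32 in LPS Fth1-low against untreated. Ifit1 and Ifit3 lie in the same cluster on chromosome 19 and differed by 2.07 ± 0.31 and -0.02 ± 0.32 in LPS Fth1-high against untreated. Ifi205 and Ifi204, on chromosome 1, differed by 1.66 ± 0.26 and 0.15 ± 0.26 in LPS Fth1-low against untreated.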
